A study of Mus musculus with 18 samples.

Results

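The comparison described here asks whether the gap between NOD.H-2b and BALB/c males in lacrimal gland (LG) expression changed from 2 to 4 months (2M to 4M) of age. It is the strain by age interaction, the strain difference at 4M minus the strain difference at 2M, and it was taken for every gene from the raw read counts of 12 of the 18 mice of the series. These were 3 BALB/cJ and 3 NOD.B10Sn-H2b/J mice (the latter called NOD.H-2b) at each of 2M and 4M, all male, with 1 LG per mouse. The 6 mice of 6M, 3 of each strain, were left out of the fit and are shown as a description. NOD.H-2b mice carry the NOD background with the H2b haplotype of C57BL/10SnJ, and develop a disease of the exocrine glands like that of Sjögren's syndrome without diabetes. BALB/c, the control strain, differs from NOD.H-2b throughout the genome, so strain background and disease cannot be told apart in any value below. The interaction is given on a log2 scale with its standard error (SE). A positive value means that the level in NOD.H-2b relative to BALB/c was higher at 4M than at 2M, and a negative value that it was lower.

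The LG makes the watery layer of the tear film. Its acinar cells secrete tear proteins, which in male mice include secretoglobins, lipocalins and the exocrine gland-secreting peptides (ESPs), small proteins of which ESP1 is a pheromone. Its epithelium also carries dimeric IgA from plasma cells into tears by means of the polymeric immunoglobulin receptor, encoded by Pigr. In Sjögren's syndrome, T cells, B cells and macrophages gather around the ducts and acini. In whole glands, fewer cells of a type and less RNA per cell cannot be told apart.

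The 12 libraries held 49480781 to 67138830 counts, and 18422 of 54232 genes had enough counts to be tested. The tissue label held: tear protein genes took 402170 to 534770 CPM (counts scaled to the size of the library) in each mouse, whereas the lists of salivary gland and skeletal muscle markers summed to at most 4.93 and 1.23 CPM. NOD.H-2b 2M replicate 1 lay farthest from its group (mean leading log2 distance 1.04, against 0.783 and 0.906 for its group mates), with the lowest summed B cell and T cell markers of the group (16.4 and 18.7 CPM). BALB/c 4M replicate 3 had 14.6 CPM of T cell markers, against 3.58 and 5.32 in the other BALB/c 4M mice. The totals of called genes, and the values of some lists and genes, are given with and without them.

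The strain difference changed between 2M and 4M for 119 genes, by the quasi-likelihood test of edgeR at a false discovery rate (FDR, adjusted after Benjamini and Hochberg) under 0.05 and at least 2-fold. Of these, 62 had a positive interaction (0.337% of all genes tested) and 57 a negative one (0.309%). At FDR alone 139 were positive (0.755%) and 208 negative (1.13%), so that 228 of 347 lay under 2-fold. The strain difference itself was far more common. In NOD.H-2b 20.1% of the genes stood above BALB/c and 17.6% below at 2M (FDR under 0.05), and 25.4% and 22.1% at 4M. Most strain differences of 2M were thus not called as changed by 4M. The median SE of the interaction was 0.23, and 3234 genes had an unadjusted p under 0.05, of which 1608 were positive (8.73%) and 1626 negative (8.83%). DESeq2 called 454 genes positive (2.46%) and 709 negative (3.85%) at FDR under 0.05. The counts of list members given below are to be read beside these shares of all genes.

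The 119 genes were sorted by whether the strain difference itself passed FDR 0.05 at each age. It opened in 37 genes (called at 4M and not at 2M), of which 25 were higher in NOD.H-2b. It widened in 36 genes (called at both ages with the same sign and larger at 4M), of which 20 were higher in NOD.H-2b. It narrowed in 19 genes and closed in 12, the latter being called at 2M and not at 4M. In the other 15 genes it was called at both ages with opposite signs. The interaction called in NOD.H-2b's favour thus mostly opened or widened a gap, 45 of 62 genes, whereas the negative calls were spread more evenly over the classes.

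**Figure D1:**
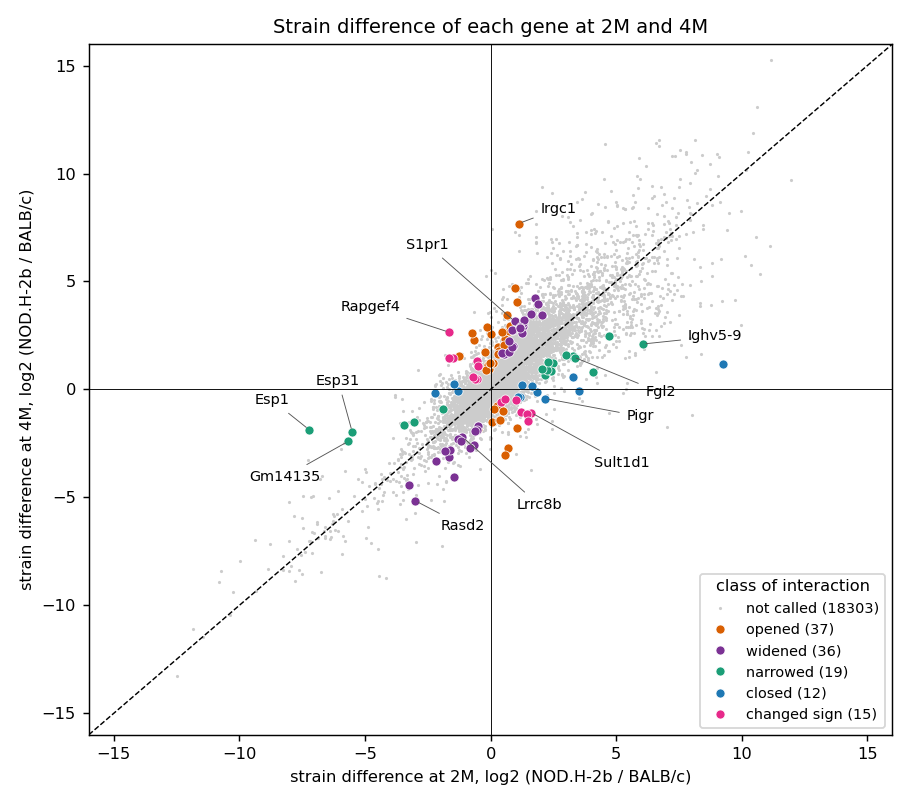
Strain difference (NOD.H-2b minus BALB/c, log2) at 2M on the x axis and at 4M on the y axis for each of the 18422 genes tested (grey), with the 119 genes called for the interaction colored by class. Genes on the dashed diagonal had the same strain difference at both ages, and the called genes lie off it on both sides, 62 above and 57 below.

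How many genes were called depended on single mice. Without 1 mouse at a time the total ranged from 43 (without NOD.H-2b 2M replicate 1) to 179 (without NOD.H-2b 4M replicate 3). It was 50, 49 and 60 without BALB/c 2M replicates 1, 2 and 3, 68 without NOD.H-2b 2M replicate 3, and 67 and 48 without BALB/c 4M replicates 1 and 2. It was 60 without both NOD.H-2b 2M replicate 1 and BALB/c 4M replicate 3, the mice described above. In that fit 45 of the 119 genes kept their call. Others missed FDR 0.05 there, such as Gm14135 (0.0684), Smc4 (0.0541), Trib2 (0.0778), Cd55 (0.0996) and Esp1 (0.109). All 119 genes kept the sign of their interaction in all 12 fits without 1 mouse, 27 kept their call in all 12 and 66 in 6 or fewer. These fits reuse the mice that chose the genes, so a kept sign was likely beforehand. For most genes below, the number of these 12 fits that called them at FDR 0.05 and 2-fold is given. Tested against a change of 2-fold rather than of 0, 1 gene passed, the sulfotransferase gene Sult1d1. The 27 genes with a call in every fit comprised 6 positive ones, S1pr1, Esp31, Gm14135, Kcnc4, Plk3 and Mthfd1l, and 21 negative ones, among them Lrrc8b, Slc5a1, Fcgbp, Fgl2, Pigr and Slco1a5.

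Each interaction is the change with age in NOD.H-2b minus that in BALB/c. In the 12 mice, 2585 genes (14%) rose and 1671 (9.07%) fell from 2M to 4M in NOD.H-2b at FDR under 0.05, against 566 (3.07%) and 366 (1.99%) in BALB/c. Counts of list members that rose or fell with age, given below, are to be read beside these shares of all genes. Among the 62 positive genes, 55 rose in NOD.H-2b and 8 fell in BALB/c. The negative side was less one-sided, since 36 of its 57 genes fell in NOD.H-2b while 27 rose in BALB/c. In all, 80 of the 119 genes changed with age in NOD.H-2b alone at this threshold, 22 in BALB/c alone, 8 in both with opposite signs, 8 in both with the same sign and 1 in neither. These counts use the same mice as the interaction and describe it.

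**Figure D2:**
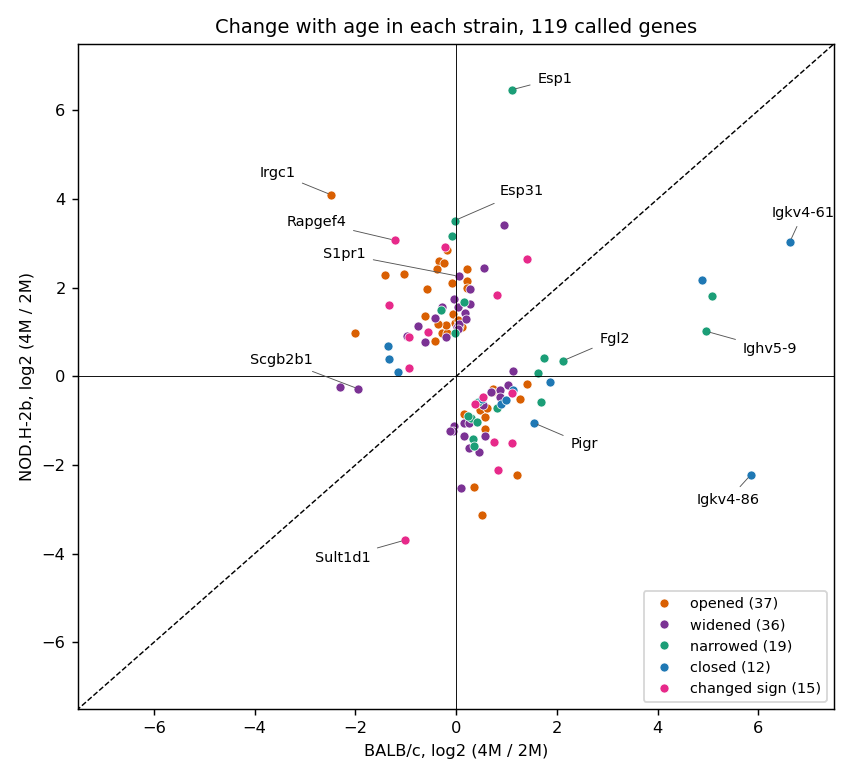
Change from 2M to 4M (log2) in BALB/c on the x axis and in NOD.H-2b on the y axis for the 119 genes called for the interaction, colored by class; the dashed diagonal marks equal change in both strains. Positive genes lie above the diagonal, mostly above 0 on the NOD.H-2b axis (55 of 62 rose there), and negative genes lie below it, with 36 of 57 falling in NOD.H-2b and 27 rising in BALB/c.

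Genes that were lower in NOD.H-2b and fell further behind included transporters and secreted products of epithelium. Lrrc8b, a subunit of the volume-regulated anion channel, had the smallest p of the genes with an average of at least 2 log2 CPM. It was at 159, 145 and 159.7 CPM in BALB/c mice and 75.9, 64.6 and 73.9 CPM in NOD.H-2b mice at 2M. At 4M BALB/c mice were at 154, 155 and 143 CPM and NOD.H-2b mice at 31.5, 34.7 and 31.4 CPM. NOD.H-2b fell while the change in BALB/c was not called, and the strains did not overlap at either age. The strain difference went from -1.13 to -2.20, an interaction of -1.07 ± 0.10 (FDR = 0.000333, 12 of 12 fits). The sodium-glucose cotransporter gene Slc5a1 followed the same course. It was at 27.5, 27.4 and 27.5 CPM and 31.9, 30 and 30.3 CPM in BALB/c at 2M and 4M, and at 8.96, 8 and 9.77 CPM and then 3.42, 4.36 and 2.5 CPM in NOD.H-2b. Its interaction was -1.51 ± 0.19 (FDR = 0.00337, 12 of 12 fits).

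Whrn, which encodes a scaffold protein of stereocilia and of cell junctions, and Mgll, the monoglyceride lipase, widened their gap with a fall in NOD.H-2b. Whrn went from 3.05, 3.68 and 2.78 CPM to 1.46, 1.02 and 1.2 CPM in NOD.H-2b, where it fell, and from 5.2, 4.07 and 5.68 CPM to 7.45, 6.74 and 8.23 CPM in BALB/c, where the change was not called. Its interaction was -1.93 ± 0.24 (FDR = 0.00255, 12 of 12 fits). Mgll fell in NOD.H-2b, from 24.5, 22.8 and 23.3 CPM to 13.4, 15.9 and 15.3 CPM, and rose in BALB/c, from 35, 35.3 and 29.3 CPM to 40.1, 55.6 and 49.1 CPM. Its interaction was -1.18 ± 0.16 (FDR = 0.0064, 12 of 12 fits).

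In 2 further genes the change with age was called in BALB/c and not in NOD.H-2b. Fcgbp, a secreted mucin-like protein that binds the Fc part of IgG, was at 158, 201 and 185 CPM in BALB/c at 2M and at 309, 318 and 372 CPM at 4M. In NOD.H-2b it was at 116, 120.0 and 149 CPM and then at 90.2, 107 and 109 CPM, below every BALB/c mouse of the same age. Its strain difference widened from -0.52 to -1.70 (interaction -1.18 ± 0.17, FDR = 0.00927, 12 of 12 fits). Ccdc3, which encodes a secreted protein, had no called strain difference at 2M, with 2.69, 2.8 and 3.87 CPM in BALB/c mice and 3.15, 3.06 and 3.65 CPM in NOD.H-2b mice. At 4M BALB/c mice were at 8.06, 9.64 and 7.5 CPM and NOD.H-2b mice at 3.16, 2.28 and 3.26 CPM. The groups overlapped at 2M and did not at 4M, and the interaction was -1.58 ± 0.25 (FDR = 0.00907, 12 of 12 fits).

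Further genes called in all 12 fits, named after their values were seen, were Arhgef19, a guanine nucleotide exchange factor, Itga2b, the platelet integrin subunit, and Slc16a11, of the monocarboxylate transporter family. Arhgef19 was at 54.2, 49.9 and 47.4 CPM in BALB/c mice and 5.5, 4.19 and 6.33 CPM in NOD.H-2b mice at 2M, and at 52.5, 48.4 and 46.4 CPM and 1.87, 2.3 and 2.58 CPM at 4M (interaction -1.19 ± 0.19, FDR = 0.0113). Itga2b fell in NOD.H-2b from 2.94, 3.12 and 3.84 CPM to 1.47, 1.85 and 1.36 CPM (interaction -1.21 ± 0.21, FDR = 0.0124). Slc16a11 fell there from 2.62, 2.69 and 2.55 CPM to 0.775, 1.36 and 1.32 CPM, with BALB/c at 1.77, 1.96 and 2.49 CPM and 3.2, 3.08 and 3.04 CPM (interaction -1.75 ± 0.29, FDR = 0.0113). The gap of the first 2 widened and that of Slc16a11 opened.

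Mucl2, a mucin-like secretory product and one of the most abundant of the negative genes, was at 4256, 4109.7 and 4742 CPM in BALB/c mice and 5639.7, 6746 and 4866 CPM in NOD.H-2b mice at 2M, where NOD.H-2b mice were all higher but the difference was not called. At 4M the order was turned, with 6031, 5180.0 and 7174 CPM in BALB/c mice and 3142, 3965 and 3016 CPM in NOD.H-2b mice. The fall in NOD.H-2b was called, the change in BALB/c was not, and the interaction was -1.23 ± 0.21 (FDR = 0.0183, 9 of 12 fits).

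Of the genes that narrowed or closed, the smallest p among those with an average of at least 2 log2 CPM was that of Fgl2, fibrinogen-like protein 2, which is made by macrophages and T cells and has coagulant and immune regulatory functions. At 2M it was at 4.55, 4.55 and 5.06 CPM in BALB/c mice and 38.9, 56.9 and 43.7 CPM in NOD.H-2b mice. At 4M it was at 20, 19.8 and 22.5 CPM and 61.4, 54.1 and 61 CPM. It rose in both strains, more in BALB/c (2.12 on the log2 scale) than in NOD.H-2b (0.35), and the groups did not overlap at either age. The strain difference went from 3.28 to 1.51, an interaction of -1.77 ± 0.17 (FDR = 0.000661, 12 of 12 fits). Fgl2 overlaps Ccdc146, which lies on the opposite strand, and whether reads were counted by strand is not given in the sources used here.

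Syne4, which anchors the nucleus of secretory epithelial cells to kinesin, and Ptprd, a receptor tyrosine phosphatase, narrowed by falling in NOD.H-2b. Syne4 was at 15.3, 12 and 13.5 CPM in NOD.H-2b mice at 2M and at 3.52, 5.39 and 6.29 CPM at 4M, while all BALB/c mice of both ages lay at or below 2.02 CPM. Its interaction was -1.74 ± 0.28 (FDR = 0.00986, 12 of 12 fits). Ptprd went from 20.9, 16.8 and 15.5 CPM to 7.73, 9.94 and 9.99 CPM in NOD.H-2b, against 3.35, 3.07 and 3.08 CPM and 3.39, 4.39 and 3.98 CPM in BALB/c. Its interaction was -1.23 ± 0.20 (FDR = 0.00987, 12 of 12 fits). In both genes NOD.H-2b stayed above BALB/c in every mouse.

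The chemokine genes Ccl6 and Ccl9 narrowed as well, the 2 of 26 tested members of the inflammatory cytokine and chemokine list called at FDR under 0.05, both negative. Ccl6 rose in BALB/c, from 0.724, 0.982 and 0.683 CPM to 1.99, 2.11 and 3.32 CPM, and was at 4.93, 3.82 and 4.14 CPM and 4.22, 4.93 and 4.32 CPM in NOD.H-2b mice at 2M and 4M (interaction -1.55 ± 0.30, FDR = 0.0209, 9 of 12 fits). Its highest BALB/c 4M value was in replicate 3, the mouse of that group with the most T cell markers, and a link between them was not tested. Ccl9 fell in NOD.H-2b, from 46.3, 41.7 and 51.6 CPM to 27, 30.2 and 35.7 CPM, and was at 9.08, 9.06 and 9.99 CPM and 10.9, 16.5 and 11.1 CPM in BALB/c (interaction -1.01 ± 0.22, FDR = 0.049, 4 of 12 fits).

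Pigr, the receptor that carries IgA into tears, had a strain difference at 2M that was no longer called at 4M. At 2M BALB/c mice were at 138, 112 and 160.1 CPM and NOD.H-2b mice at 765, 468 and 639 CPM. At 4M BALB/c mice were at 375, 425 and 409 CPM and NOD.H-2b mice at 244, 272 and 379.5 CPM. Every NOD.H-2b mouse was above every BALB/c mouse at 2M, whereas at 4M the groups overlapped, with NOD.H-2b the lower on average. Pigr rose in BALB/c (1.55 on the log2 scale) and fell in NOD.H-2b (-1.05). The strain difference of 2.17 at 2M was -0.43 at 4M, no longer called, for an interaction of -2.60 ± 0.31 (FDR = 0.00907, 12 of 12 fits).

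Genes of immunoglobulin A, the cargo of this receptor, and its J chain did not pass the test by edgeR and passed by DESeq2. Igha was at 20.1, 31.5 and 47.5 CPM in BALB/c mice and 267, 675 and 559 CPM in NOD.H-2b mice at 2M, and at 648, 478 and 967 CPM and 1399, 3133 and 2500.1 CPM at 4M. It rose with age in both strains, by 4.39 in BALB/c mice and 2.25 in NOD.H-2b mice on the log2 scale, and its interaction was -2.14 ± 0.68 (FDR = 0.158). Jchain had an interaction of -1.96 ± 0.64 (FDR = 0.166) and Ighm, the IgM heavy chain, one of 1.03 ± 0.66 (FDR = 0.485). By DESeq2, Igha had an FDR of 0.0189 and Jchain one of 0.0227. Igha was named after its values were seen.

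Immunoglobulin segments made up 5 of the 119 called genes, 4 variable genes and 1 constant gene, all with a negative interaction. The 4 are of 194 variable genes tested, beside 0.309% of all genes called negative. Igkv4-61 and Igkv4-86, variable genes not described further, were called in only 3 and 1 of 12 fits. The immunoglobulin segments were chosen for description after their values were seen. Iglv1, a lambda variable gene, was at 0.362, 0.429 and 0.438 CPM in BALB/c mice and 4.18, 8.71 and 8.29 CPM in NOD.H-2b mice at 2M, and at 12.8, 13.4 and 16.1 CPM and 25.9, 31.9 and 16.2 CPM at 4M. It rose in both strains, by 5.08 in BALB/c mice and 1.82 in NOD.H-2b mice on the log2 scale (interaction -3.26 ± 0.50, FDR = 0.0183, 9 of 12 fits). Iglc1, the lambda constant gene, went the same way, with 0.438, 0.482 and 0.701 CPM and 3.17, 7.6 and 5.3 CPM at 2M and 15.2, 15.8 and 17.6 CPM and 21.7, 34.2 and 15.8 CPM at 4M (interaction -2.71 ± 0.56, FDR = 0.049, 3 of 12 fits). Ighv5-9 was at 1.63, 3.62 and 2.48 CPM in NOD.H-2b mice at 2M and at 3.34, 7.24 and 4.9 CPM at 4M. BALB/c mice had 2 counts each at 2M and 1.01, 1.26 and 1.36 CPM at 4M, so that the size of its fitted interaction is no bound (FDR = 0.00971, 12 of 12 fits). Reads of such segments can be split between near-identical copies. Iglv1 and Iglc1 also both overlap 2010309G21Rik on the opposite strand.

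The 300 bases around the start of Pigr (GRCm38.p6, RefSeq, chr1:130826434-130826733, plus strand, 250 bases before to 50 after the start) are shown because this gene changed in opposite directions in the strains. Capitals mark the GAS core TTCNNNGAA, the letters bound by STAT factors, found at base 290; 9.55% of the promoters of 27025 genes held it on either strand.
Pigr: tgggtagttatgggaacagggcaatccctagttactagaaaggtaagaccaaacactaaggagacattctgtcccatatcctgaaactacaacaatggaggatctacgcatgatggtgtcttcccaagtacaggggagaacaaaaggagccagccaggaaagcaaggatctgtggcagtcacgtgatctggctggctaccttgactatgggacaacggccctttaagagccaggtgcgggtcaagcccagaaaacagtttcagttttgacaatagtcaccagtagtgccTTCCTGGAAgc

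Slco1a5, an organic anion transporter, changed the sign of its strain difference. It was at 5.69, 5.86 and 6.68 CPM in BALB/c mice and 12.7, 12.6 and 11.6 CPM in NOD.H-2b mice at 2M, and at 11.4, 13.1 and 15.4 CPM and 9.22, 11 and 7.99 CPM at 4M. The groups did not overlap at either age and stood in opposite order, with an interaction of -1.49 ± 0.18 (FDR = 0.00255, 12 of 12 fits). Sult1d1, the sulfotransferase gene that also passed against 2-fold, had the smallest p of all genes. It was at 2.1, 1.98 and 1.96 CPM in BALB/c mice and 7.13, 6.05 and 5.41 CPM in NOD.H-2b mice at 2M, and at 1.15, 0.891 and 0.958 CPM and 0.501, 0.416 and 0.5 CPM at 4M. It fell in both strains, by 1.02 in BALB/c and by 3.70 in NOD.H-2b on the log2 scale, and its interaction was -2.68 ± 0.25 (FDR = 0.000333, 12 of 12 fits). It lies below the abundance set for named genes and was named after its values were seen. The same holds for Slc16a11, Ighv5-9, Trib2, Kcnc4, Plk3 and Mthfd1l.

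Tcaf1, a partner of TRP cation channels, and the epithelial progenitor marker Prom1 also changed sign downwards. Tcaf1 was at 19.4, 19.8 and 18.5 CPM in BALB/c mice and 27.5, 24.8 and 26.1 CPM in NOD.H-2b mice at 2M, and at 26.1, 30.3 and 28.5 CPM and 14.7, 20.1 and 21.1 CPM at 4M (interaction -1.02 ± 0.16, FDR = 0.00907, 8 of 12 fits). Prom1 was low, at most 3.66 CPM in any of the 12 mice, and its strain difference went from 1.21 to -1.03 (interaction -2.24 ± 0.35, FDR = 0.00907, 12 of 12 fits).

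Among the called tear protein genes the largest positive interactions were those of ESP genes. Esp31 was at 3484, 3516 and 2965 CPM in BALB/c mice and 52.2, 101 and 67.9 CPM in NOD.H-2b mice at 2M. At 4M it was at 4116, 3269 and 2462 CPM in BALB/c mice and 1090.4, 589.5 and 822 CPM in NOD.H-2b mice. It rose in NOD.H-2b and stayed below every BALB/c mouse, so that the gap narrowed from -5.51 to -1.97 (interaction 3.54 ± 0.43, FDR = 0.01, 12 of 12 fits). Esp1, the gene of the ESP1 pheromone, was at 99.1, 149 and 213 CPM in BALB/c mice and 1.34, 1.14 and 0.648 CPM in NOD.H-2b mice at 2M, and at 186, 505 and 311 CPM and 155, 47.7 and 71.1 CPM at 4M. Its rise in NOD.H-2b was 6.47 on the log2 scale and its interaction 5.36 ± 0.88 (FDR = 0.0311), but it was called in 5 of 12 fits and the BALB/c values were spread widely. Esp3 moved the other way. It was at 49.2, 50.4 and 63.7 CPM and then 18, 25.1 and 25.9 CPM in NOD.H-2b, where it fell, against 266, 234 and 237 CPM and 273, 191 and 223 CPM in BALB/c (interaction -1.12 ± 0.24, FDR = 0.0473, 1 of 12 fits). Esp1 and Esp3 were named after their values were seen. Of 13 Esp genes tested, 6 lay above 0 and 7 below, and the other 10 were not called at FDR under 0.05.

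The promoters of these 3 genes, all on chromosome 17, are shown because members of 1 family moved in opposite directions. They are RefSeq windows of the same kind on GRCm38.p6, plus strand: Esp1 at chr17:40726870-40727169, Esp3 at chr17:40631825-40632124 and Esp31 at chr17:38639197-38639496. Capitals mark motifs searched on both strands, which were TTCNNNGAA (GAS core), GAAANNGAA (ISRE core), the CCAAT box, GAGGAA (PU.1 core), TTTGAA (cell cycle homology region) and TTTGGCG (E2F core).
Esp1: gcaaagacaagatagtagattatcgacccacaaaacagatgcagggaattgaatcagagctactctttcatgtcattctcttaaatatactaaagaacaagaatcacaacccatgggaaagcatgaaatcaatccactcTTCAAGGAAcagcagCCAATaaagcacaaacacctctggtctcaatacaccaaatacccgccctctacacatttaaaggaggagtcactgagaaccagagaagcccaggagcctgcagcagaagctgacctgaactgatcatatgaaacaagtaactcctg
Esp3: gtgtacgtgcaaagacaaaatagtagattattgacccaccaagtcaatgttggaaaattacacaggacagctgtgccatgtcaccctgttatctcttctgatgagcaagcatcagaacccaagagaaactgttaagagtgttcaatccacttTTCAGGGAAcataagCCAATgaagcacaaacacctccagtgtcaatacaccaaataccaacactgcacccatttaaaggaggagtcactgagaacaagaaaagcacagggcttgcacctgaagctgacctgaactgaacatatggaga
Esp31: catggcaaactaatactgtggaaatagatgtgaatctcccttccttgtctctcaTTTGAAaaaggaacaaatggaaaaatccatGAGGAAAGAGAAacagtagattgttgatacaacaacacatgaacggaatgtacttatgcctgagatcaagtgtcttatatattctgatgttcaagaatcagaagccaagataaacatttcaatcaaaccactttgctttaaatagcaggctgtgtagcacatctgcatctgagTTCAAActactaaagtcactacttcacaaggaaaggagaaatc
Esp1, whose gap narrowed, and Esp3, whose gap widened, hold the same arrangement, a GAS core followed 15 bases on by a CCAAT box (at bases 140 and 155, and 153 and 168), and 228 bases, 76% of the 300, are identical in a gapped alignment. Esp31 holds neither. It has an ISRE core at base 88 that overlaps a PU.1 core at base 85, and TTTGAA at bases 55 and 258, and in the same kind of alignment 62.3% of the 300 bases are identical to Esp1 and 60.7% to Esp3, within the 53.3% to 95.3% of all pairs of 13 Esp promoters. Among 27025 genes 9.76% held the ISRE core, 41.1% CCAAT, 31.3% GAGGAA and 20.2% TTTGAA. The matches describe the letters only.

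Gm14135, a long intergenic non-coding RNA gene at chr2:149257277-149262145, had a course much like that of Esp31. It was at 11233, 11573 and 11203 CPM in BALB/c mice and 201, 323 and 156 CPM in NOD.H-2b mice at 2M, and at 11433, 10350.0 and 10406 CPM and 2353, 1293 and 2408 CPM at 4M. It rose in NOD.H-2b and the groups stayed apart (interaction 3.26 ± 0.41, FDR = 0.0107, 12 of 12 fits).

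Secretoglobins, small secreted proteins that can carry lipophilic ligands, are among the most abundant transcripts of the gland. Scgb1b2 took 53408, 50588 and 54721 CPM in BALB/c mice and 32726, 38985 and 34601 CPM in NOD.H-2b mice at 2M, and 48151, 46211 and 48793 CPM and 50396, 53475 and 53023 CPM at 4M. It rose in NOD.H-2b, from below every BALB/c mouse of its age to above, and had an interaction of 0.74 ± 0.10 (FDR = 0.00485). Scgb2b1, annotated as an unprocessed pseudogene, moved in BALB/c instead. It fell there from 23.5, 32 and 29.1 CPM to 5.45, 6.88 and 9.67 CPM and was at 59.4, 71.8 and 75.3 CPM and 60.9, 58.3 and 49.1 CPM in NOD.H-2b (interaction 1.67 ± 0.28, FDR = 0.0229, 7 of 12 fits). Secretoglobin genes include similar copies between which reads can be split, and Scgb1b2 overlaps Scgb2b2 on the opposite strand, so the values of single genes are uncertain. Of the 85 tested tear protein genes, 5 were positive and 4 negative at FDR under 0.05, with a median interaction of 0.27 beside 0.011 over all genes. Without 1 mouse at a time 2 to 7 members were positive and 1 to 4 negative.

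**Figure D3:**
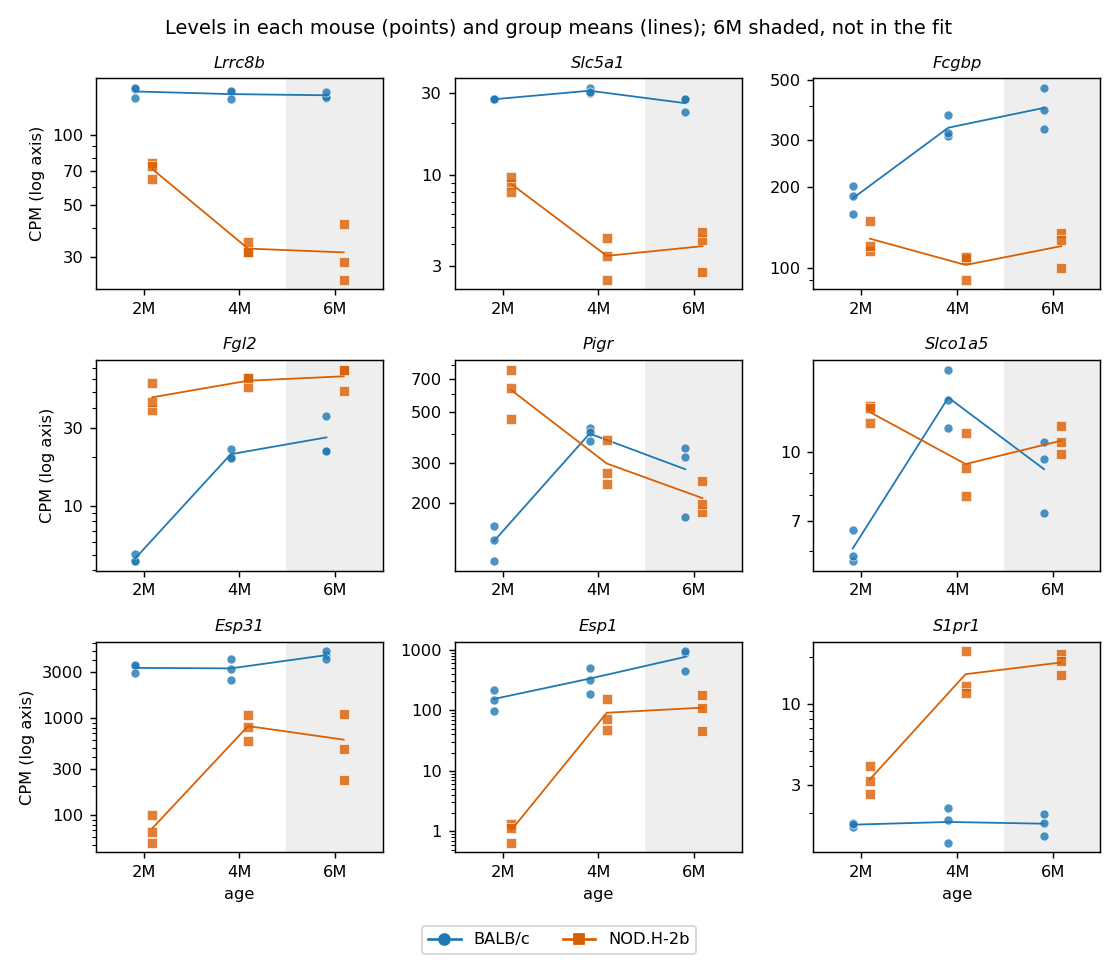
CPM on a log axis in each mouse (points) by strain and age, with group means as lines, for 9 genes called for the interaction; the mice of 6M are shaded and were not in the fit. Pigr shows BALB/c rising and NOD.H-2b falling until they overlap, Fgl2 shows BALB/c rising toward NOD.H-2b, Lrrc8b shows NOD.H-2b falling away from BALB/c, and Esp31 shows NOD.H-2b rising toward BALB/c without reaching it.

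The positive genes whose gap opened or widened included genes of lymphocytes and vessels. S1pr1, the sphingosine-1-phosphate receptor of lymphocytes and endothelium, was at 1.62, 1.71 and 1.7 CPM in BALB/c mice and 2.64, 4 and 3.21 CPM in NOD.H-2b mice at 2M. At 4M it was at 1.28, 1.8 and 2.15 CPM and 21.9, 13.1 and 11.7 CPM. The groups did not overlap at either age, and the strain difference widened from 0.95 to 3.16 (interaction 2.21 ± 0.36, FDR = 0.0122, 12 of 12 fits). Pecam1, an adhesion molecule of endothelium, platelets and leukocytes, was at 8.36, 9.63 and 9.74 CPM and 12.6, 14.3 and 13.4 CPM at 2M, and at 9.79, 8.5 and 9.95 CPM and 35.6, 26.2 and 24.4 CPM at 4M (interaction 1.10 ± 0.18, FDR = 0.00986, 11 of 12 fits). It was the 1 member called among the 10 tested endothelial genes, whose median interaction was 0.26.

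Smc4, a subunit of condensin, Map4k2, the germinal center kinase, and Grk6, a kinase of G protein-coupled receptors, rose in NOD.H-2b and were not called as changed with age in BALB/c. Smc4 was at 10.8, 13.1 and 12.5 CPM in NOD.H-2b mice at 2M and 27.1, 19.2 and 20 CPM at 4M, with BALB/c at 8.61, 7.93 and 7.71 CPM and 7.04, 7.47 and 6.75 CPM (interaction 1.08 ± 0.17, FDR = 0.00945, 10 of 12 fits). Map4k2 was at 9.28, 9.89 and 8.8 CPM and 8.14, 10.3 and 8.54 CPM at 2M, overlapping between strains, and at 9.23, 10.9 and 10.2 CPM and 23.7, 18.5 and 15.9 CPM at 4M (interaction 1.01 ± 0.19, FDR = 0.0183, 6 of 12 fits). Grk6 was at 12.3, 16.1 and 13.8 CPM and then 47.8, 34.7 and 29.9 CPM in NOD.H-2b, with all BALB/c mice of both ages at or below 12.7 CPM (interaction 1.25 ± 0.22, FDR = 0.0201, 5 of 12 fits). In all 3 genes NOD.H-2b replicate 1 was the highest mouse at 4M. This mouse also had the most B cell markers of its group (672 CPM, against 383 and 320) and the most T cell markers (266 CPM, against 156 and 147).

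Cd55, which speeds the decay of complement convertases on cell surfaces and is carried by lymphocytes, was at 2.72, 2.96 and 1.84 CPM and 3.65, 5.74 and 4.49 CPM in the BALB/c and NOD.H-2b mice of 2M and at 3.72, 3.24 and 4.07 CPM and 33.8, 24.2 and 16.9 CPM in those of 4M (interaction 1.90 ± 0.38, FDR = 0.0384, 5 of 12 fits). It was the 1 member called among 15 tested complement genes, and their median was below 0, at -0.27. Casp8, the initiator caspase of death receptors, was the 1 member called among 29 tested genes of apoptosis and necroptosis. It rose in NOD.H-2b from 8.37, 9.73 and 9.25 CPM to 15.7, 14.3 and 14.3 CPM, with BALB/c at 6.72, 6.77 and 6.03 CPM and 6.16, 7.02 and 6.66 CPM (interaction 0.70 ± 0.13, FDR = 0.0201). The median of that list was -0.015.

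Summed markers of B and T cells rose over the same ages in both strains. By gene, 19 of 20 B cell and 22 of 24 T cell members rose in NOD.H-2b at FDR under 0.05. In BALB/c 1 member of each list did. From 2M to 4M the summed B cell markers went from 16.4 to 82.9 CPM up to 320 to 672 CPM in NOD.H-2b, and from 1.89 to 3.57 CPM up to 8.56 to 14.3 CPM in BALB/c. Summed T cell markers went from 18.7 to 69.5 CPM up to 147 to 266 CPM in NOD.H-2b and from 1.47 to 2.21 CPM up to 3.58 to 14.6 CPM in BALB/c. The median interaction was 1.27 over the B cell list and -0.29 over the T cell list, with no member of either called. The part of these cells in the positive interactions was not tested.

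Trib2, Mef2c and Fli1 followed the same course and were also named after their values were seen. Trib2, a pseudokinase, was at 2.51, 1.82 and 2.09 CPM and 1.72, 3.05 and 1.77 CPM in the BALB/c and NOD.H-2b mice of 2M and at 1.84, 1.28 and 1.2 CPM and 12.2, 7.67 and 5.5 CPM in those of 4M (interaction 2.56 ± 0.44, FDR = 0.0172, 10 of 12 fits). The transcription factor genes Mef2c, used in B cells, muscle and endothelium, and Fli1, of blood cells and endothelium, had interactions of 1.77 ± 0.34 (FDR = 0.0384, 4 of 12 fits) and 1.35 ± 0.29 (FDR = 0.0406, 5 of 12 fits). Mef2c went from 9.36, 14.6 and 10.8 CPM to 63, 39.8 and 33.9 CPM in NOD.H-2b and Fli1 from 5.1, 7.1 and 5.38 CPM to 22.7, 16.6 and 14.5 CPM.

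Rapgef4, an exchange factor activated by cyclic AMP, and Snord17, a small nucleolar RNA, changed sign upwards. Rapgef4 was at 2.34, 4.27 and 8.36 CPM in BALB/c mice and 1.34, 2.56 and 0.949 CPM in NOD.H-2b mice at 2M, an overlap between strains although their difference was called, and at 1.9, 2.49 and 2.11 CPM and 14.6, 11 and 14.9 CPM at 4M (interaction 4.29 ± 0.67, FDR = 0.0203, 8 of 12 fits). BALB/c mice of 6M spread as widely, at 7.54, 14 and 2.34 CPM. Snord17 rose in both strains, from 8.93, 7.02 and 7.27 to 11.8, 13.1 and 16.3 CPM in BALB/c and from 5.45, 5.54 and 5.04 to 20.5, 18.7 and 17.7 CPM in NOD.H-2b (interaction 1.02 ± 0.17, FDR = 0.0113, 7 of 12 fits). It lies within Snx5 on the same strand, and the interaction of Snx5 was 0.37 ± 0.14 (FDR = 0.174).

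The other 3 positive genes called in all 12 fits, named after their values were seen, fell in BALB/c or rose in NOD.H-2b. Kcnc4, a potassium channel, fell in BALB/c from 4.88, 5.75 and 5.63 CPM to 2.4, 1.32 and 2.65 CPM and was at 1.27, 1.43 and 0.854 CPM and 1.56, 1.82 and 2.28 CPM in NOD.H-2b, so that its gap closed (interaction 2.04 ± 0.35, FDR = 0.0124). At 6M the gap was open again, with 2.54, 2.09 and 3.76 CPM in BALB/c mice and 0.444, 0.497 and 1.02 CPM in NOD.H-2b mice. Plk3, a polo-like kinase, fell in BALB/c from 2.65, 2.39 and 2.8 CPM to 1.12, 1.21 and 1.75 CPM and rose in NOD.H-2b from 1.86, 1.6 and 2.01 CPM to 3.8, 2.83 and 3.38 CPM (interaction 1.83 ± 0.28, FDR = 0.00876). Mthfd1l, a mitochondrial enzyme of folate metabolism, rose in NOD.H-2b from 2.34, 3.02 and 2.77 CPM to 6.88, 4.22 and 4.94 CPM, with BALB/c at 3.73, 3.45 and 4.15 CPM and 2.7, 2.19 and 2.83 CPM (interaction 1.56 ± 0.26, FDR = 0.0107). The strains stood in opposite order at 2M and 4M for Plk3 and Mthfd1l, without overlap at either age.

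Genes of epithelial structure, the keratins, junction proteins and adhesion molecules of the gland's epithelium, had negative interactions throughout. Of 30 tested members all 30 had a negative interaction, with a median of -0.44, and 10 were called at FDR under 0.05, a share to read against the 1.13% of all genes that were. At an unadjusted p under 0.05 there were 23. Epcam, an adhesion molecule of epithelia, was at 88.9, 90.2 and 88.1 CPM in BALB/c mice and 116, 116 and 115 CPM in NOD.H-2b mice at 2M, and at 106, 111 and 109.7 CPM and 84.7, 103 and 97.4 CPM at 4M. It rose in BALB/c and fell in NOD.H-2b, so that the order of the strains was turned without overlap at either age (interaction -0.55 ± 0.091, FDR = 0.0107). The junctional adhesion molecule gene F11r fell in NOD.H-2b from 50.9, 48.8 and 53.2 CPM to 33.7, 37.3 and 39.6 CPM, with BALB/c at 54.1, 59.5 and 58.5 CPM and 58.6, 57.9 and 58.8 CPM (interaction -0.47 ± 0.092, FDR = 0.0225). Krt18, a keratin of simple epithelia, fell in NOD.H-2b from 229.7, 216 and 226 CPM to 150.2, 192 and 194 CPM, with BALB/c at 224, 225 and 222 CPM and 263, 255 and 257 CPM (interaction -0.51 ± 0.11, FDR = 0.0379). The other of the 4 members named by p was Prom1, above.

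With age 16 of the 30 fell in NOD.H-2b and none rose, whereas in BALB/c 3 rose and none fell. The summed level of the list was 2422 to 2705 CPM in NOD.H-2b mice at 2M and 1816 to 2243 CPM at 4M, against 2513 to 2524 CPM and 2666 to 2822 CPM in BALB/c. Over the same ages the summed plasma cell markers of NOD.H-2b, mostly immunoglobulin, went from 541 to 1359 CPM up to 5059 to 6229 CPM. Its part in the fall of the epithelial list was not tested. The number of epithelial members called was 16 by DESeq2 and lay between 2 and 12 without 1 mouse at a time, with the median between -0.51 and -0.37. It was 2 to 4 without any 1 of the BALB/c mice of 2M, NOD.H-2b 2M replicate 1 or 3, or BALB/c 4M replicate 1 or 2, and 2 without both NOD.H-2b 2M replicate 1 and BALB/c 4M replicate 3.

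Of 24 fibroblast and matrix genes 3 were called, all negative, with a median over the list of -0.57. At an unadjusted p under 0.05, 14 were negative and 1 positive, and DESeq2 called 8 negative. Collagen VI (Col6a3) was higher in NOD.H-2b at 2M, with 58.3, 49 and 53.9 CPM against 31.3, 31.1 and 29.1 CPM, and overlapped between strains at 4M, with 31.7, 34.7 and 29.4 CPM against 25.9, 29.8 and 36.2 CPM (interaction -0.73 ± 0.15, FDR = 0.0346). The proteoglycan genes decorin (Dcn) and lumican (Lum) had interactions of -0.52 ± 0.11 (FDR = 0.0346) and -1.0 ± 0.22 (FDR = 0.0418), and both fell in NOD.H-2b. In that strain 12 of the 24 fell and 1 rose, whereas in BALB/c 2 fell and none rose. Between 0 and 4 members were called without 1 mouse at a time, with 0 without BALB/c 2M replicate 1 or 3, NOD.H-2b 2M replicate 1 or BALB/c 4M replicate 2.

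Of 13 immune lists 11 held no called gene, although their strain differences were large, the exceptions being complement (Cd55) and inflammatory cytokines and chemokines (Ccl6 and Ccl9), above. Over the 11 lists of B, T, plasma, dendritic and cytotoxic cells, germinal center and lymphoid tissue genes, macrophages, MHC class II and both interferon responses, 0 of 204 genes passed FDR 0.05 by edgeR, with 6 positive and 15 negative at an unadjusted p under 0.05. DESeq2 called 5 positive and 7 negative. Of 20 tested B cell genes 19 already exceeded BALB/c at 2M and all 20 at 4M, and 19 rose with age in NOD.H-2b. Their median interaction was 1.27, the highest of the lists, but the median SE of its members was 2.55, and the list median lay between 0.46 (without BALB/c 2M replicate 2) and 1.86 (without NOD.H-2b 2M replicate 2) without 1 mouse at a time. Of the 20 genes 11 had a group in which no mouse exceeded 3 counts, for which the fitted value is no bound.

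Plasma cell genes rose in both strains, 13 of 16 in NOD.H-2b and 7 in BALB/c, with a median interaction of 0.029 (-0.62 to 0.16 without 1 mouse at a time). Of 24 T cell genes 22 rose in NOD.H-2b, with a median interaction of -0.29 that turned to 0.94 without BALB/c 4M replicate 3 and was -0.70 without BALB/c 4M replicate 2. All 12 MHC class II genes rose in NOD.H-2b, where the median interaction was 0.71. Of 25 type II interferon genes 15 rose in NOD.H-2b (median interaction 0.12), whereas none of 24 type I interferon genes rose or fell in either strain (median -0.59). Medians were -1.51 for 14 cytotoxic effector genes, 0.29 for 15 germinal center genes, 0.49 for 20 lymphoid tissue genes, -0.22 for 27 macrophage genes and -0.46 for 12 dendritic cell genes. Without 1 mouse at a time they ranged, in this order, from -1.81 to -0.54, from 0.061 to 0.86, from 0.20 to 0.98, from -0.42 to -0.0096 and from -0.64 to 0.034, and the highest of each was that without BALB/c 4M replicate 3. The medians of MHC class II, type II and type I interferon genes ranged from 0.49 to 0.97, from -0.075 to 0.35 and from -0.91 to -0.30, the second of which crossed 0. The type I interferon and cytotoxic genes were thus among those with the lowest medians, and MHC class II among those with the highest. In at least 1 group no mouse exceeded 3 counts for 9 of 24 T cell genes and 5 of 14 cytotoxic genes. The same held for 5 of 15 germinal center and 5 of 20 lymphoid tissue genes. For such genes the fitted value is no bound. Without them the medians of these 4 lists were -0.036, -1.52, 0.16 and 0.40, in this order.

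Members with the smallest p in these lists lay on either side of 0. On the positive side were Icosl (0.96 ± 0.35, FDR = 0.195), Ifi30 (0.52 ± 0.18, FDR = 0.151) and Jak1 (0.33 ± 0.094, FDR = 0.0871). On the negative side were the B cell coactivator Pou2af1 (-1.82 ± 0.68, FDR = 0.207), the perforin gene Prf1 (-3.86 ± 1.43, FDR = 0.181), Cd3d (-2.41 ± 1.66, FDR = 0.502), Tnfrsf11a (-0.62 ± 0.17, FDR = 0.0693), Cd209a (-0.70 ± 0.27, FDR = 0.193) and the interferon-induced Rsad2 (-1.31 ± 0.39, FDR = 0.102). Prf1 and Cd3d were low, at an average log2 CPM of -0.49 and 0.51, so the size of their interactions is uncertain. Tyrobp, C1qc and Itgax, genes of macrophages and dendritic cells, were higher in NOD.H-2b at both ages. Their strain differences were 2.06 and 1.92 for Tyrobp, 1.87 and 1.83 for C1qc, and 3.35 and 2.46 for Itgax, at 2M and 4M. The interactions were -0.13 ± 0.38, -0.041 ± 0.28 and -0.89 ± 0.58 (FDR = 0.906, 0.968 and 0.481). All 3 were highest in replicate 3 among the BALB/c mice of 4M, and without it Tyrobp and C1qc had interactions of 0.32 and 0.24. Car6, a secreted carbonic anhydrase of tears, had log2 strain differences of -2.94 at 2M and -2.89 at 4M (interaction 0.046 ± 0.62, FDR = 0.987).

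Cell cycle genes had the second highest median of the lists with over 10 genes, 0.96 over 32 genes. None passed FDR 0.05 by edgeR, 16 were positive and none negative at an unadjusted p under 0.05, and DESeq2 called 6. Top2a, the topoisomerase of dividing cells, was at 6.68, 4.23 and 3.14 CPM in BALB/c mice and 10.5, 8.76 and 13.3 CPM in NOD.H-2b mice at 2M, and at 1.19, 2 and 2.08 CPM and 17.3, 12.4 and 15.2 CPM at 4M. It fell in BALB/c, and its interaction of 1.89 ± 0.42 had an FDR of 0.0515. In the list 4 of 32 genes rose in NOD.H-2b and 2 fell in BALB/c, beside 14% and 1.99% of all genes tested. The median change with age over the list was 0.24 in NOD.H-2b and -0.71 in BALB/c, the larger of them in BALB/c.

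**Figure D4:**
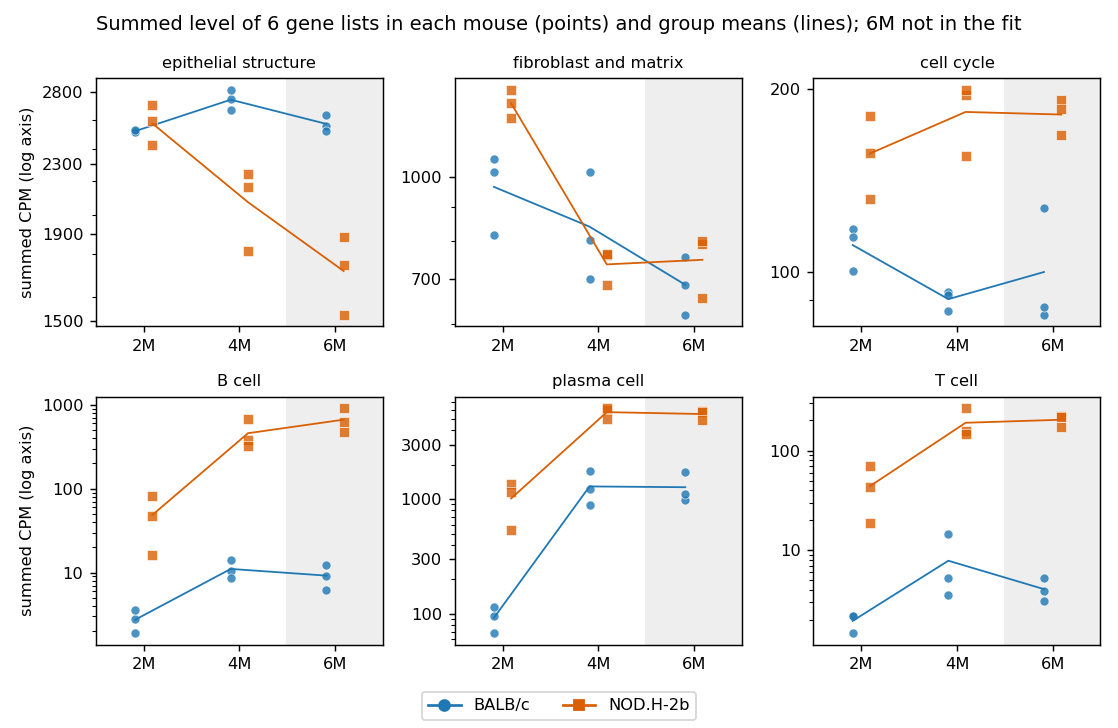
Summed CPM of 6 gene lists in each mouse (points) on a log axis, by strain and age, with group means as lines and 3 mice a group. The B cell and T cell lists climb in NOD.H-2b between 2M and 4M, and the epithelial structure list lies lower in NOD.H-2b at 4M (1816 to 2243 CPM) than at 2M (2422 to 2705 CPM).

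Metabolic lists held 1 positive and 4 negative calls at FDR under 0.05 in all, which is to be read beside 0.755% and 1.13% of all genes. Acacb, the mitochondrial acetyl-CoA carboxylase whose product limits the import of fatty acids for oxidation, was at 56.1, 50.7 and 51.5 CPM in BALB/c mice and 39.2, 28.3 and 37.7 CPM in NOD.H-2b mice at 2M, and at 60.6, 70.8 and 59.8 CPM and 12.2, 17.8 and 20.3 CPM at 4M. It fell in NOD.H-2b, and the gap widened (interaction -1.32 ± 0.25, FDR = 0.0379, 5 of 12 fits). It was the 1 gene called of 25 in fatty acid synthesis (median -0.12). Pmvk, phosphomevalonate kinase, was the 1 called of 22 in cholesterol synthesis (median 0.10). It fell in NOD.H-2b from 24.3, 19 and 26.9 CPM to 11, 10.3 and 16 CPM and was at 5.56, 6.23 and 4.94 CPM and 6.4, 5.71 and 7.62 CPM in BALB/c, so that the gap narrowed (interaction -1.13 ± 0.26, FDR = 0.0488, 2 of 12 fits).

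Of 41 genes of amino acid metabolism 1 was positive and 2 negative (median -0.045). Arg2, the mitochondrial arginase, fell in NOD.H-2b from 18.9, 15.3 and 20.6 CPM to 6.37, 7.46 and 9.97 CPM, with BALB/c at 23.7, 26.7 and 23.4 CPM and 19.3, 21.5 and 21.5 CPM (interaction -0.94 ± 0.21, FDR = 0.041). Bcat2, a transaminase of branched-chain amino acids, fell in NOD.H-2b with an interaction of -0.43 ± 0.091 (FDR = 0.0346). Psat1, of serine synthesis, was the positive one. It fell in BALB/c from 6, 3.72 and 4.82 CPM to 3.07, 2.02 and 2.53 CPM and was at 3.37, 3.06 and 3.15 CPM and 3.65, 3.4 and 3.68 CPM in NOD.H-2b (interaction 1.12 ± 0.25, FDR = 0.041, 3 of 12 fits).

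Fatty acid beta oxidation, the TCA cycle and the nuclear and mitochondrial genes of the respiratory chain held no called gene. At an unadjusted p under 0.05, 12 of their 97 genes were negative and none positive, and DESeq2 called 4 negative. Their leading members by p were Crat (-0.38 ± 0.093, FDR = 0.0512), Pcx (-0.19 ± 0.078, FDR = 0.225), Ndufs4 (-0.28 ± 0.10, FDR = 0.158) and mt-Co1 (-0.29 ± 0.086, FDR = 0.0924). Of 24 beta oxidation genes in NOD.H-2b glands 17 lay below BALB/c at 2M and 22 at 4M, with median strain differences of -0.31 and -0.45, so that most of this gap was present at 2M. Of 63 genes of fluid secretion, of protein folding in the endoplasmic reticulum and of myoepithelium none was called, 1 was positive and 8 negative at an unadjusted p under 0.05, and DESeq2 called 1 positive and 2 negative. The members with the smallest p were the calcium channel gene Itpr2 (0.87 ± 0.22, FDR = 0.0693), Sel1l (-0.23 ± 0.076, FDR = 0.128) and Myh11 (-0.42 ± 0.17, FDR = 0.224).

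Markers of tissue that a dissection can carry showed no called interaction. Over lists of fat, skeletal muscle, red cells, nerve and salivary gland, 0 of 23 genes were called by edgeR or by DESeq2, and 1 was negative at an unadjusted p under 0.05. The smallest p in each belonged to Adipoq (-1.11 ± 1.11, FDR = 0.663), Mylpf (0.99 ± 0.70, FDR = 0.513), Alas2 (0.23 ± 0.23, FDR = 0.655), Ncmap (1.27 ± 0.98, FDR = 0.55) and Amy1 (-1.31 ± 0.47, FDR = 0.166). Of 18 immediate early and heat shock genes and 18 clock genes, which follow handling and time of day, none was called. In the first list 2 were positive and 2 negative at an unadjusted p under 0.05 and DESeq2 called 1 negative, with Ier3 leading (-0.85 ± 0.28, FDR = 0.129). In the second 1 was positive and DESeq2 called 1 positive, with Cry1 leading (0.93 ± 0.29, FDR = 0.127). With age 7 of the 18 clock genes fell and 2 rose in NOD.H-2b, whereas 2 rose and none fell in BALB/c. Their summed level went from 717 to 844 CPM at 2M to 508 to 596 CPM at 4M in NOD.H-2b and from 817 to 982 CPM to 639 to 745 CPM in BALB/c.

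**Figure D5:**
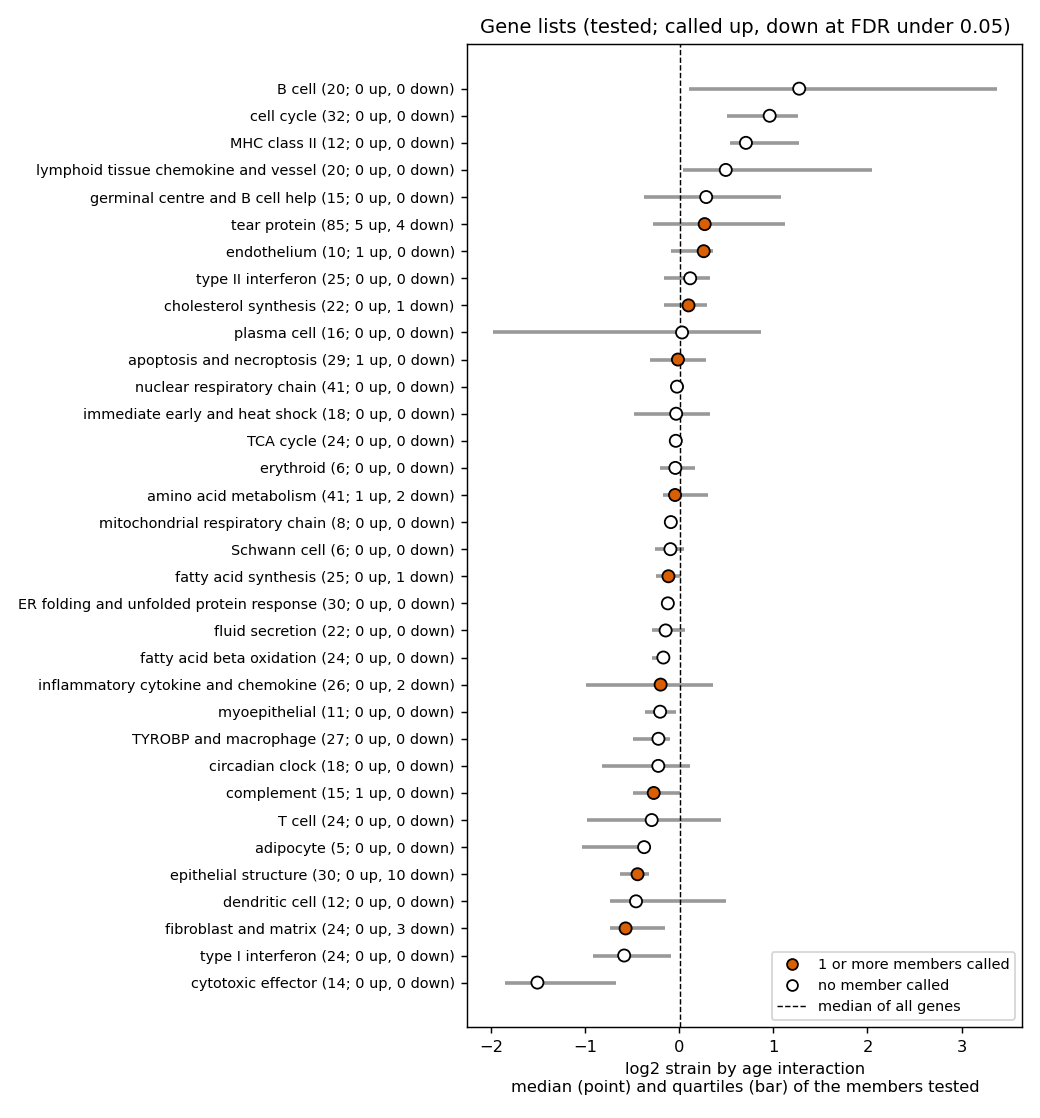
Median (point) and quartiles (bar) of the log2 interaction over the tested members of each gene list with at least 5 of them, beside the median of all genes tested (dashed line); filled points are lists with a member called at FDR under 0.05. The epithelial structure and fibroblast lists lie left of the line, at -0.44 and -0.57, and the B cell and cell cycle lists to its right, at 1.27 and 0.96.

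The 6 mice of 6M, which the fit did not use, allow the strain difference to be followed further, without a test. It was nearer to the 4M value than to the 2M value in 105 of the 119 called genes (88.2%), beside 12735 of all 18422 genes tested (69.1%). The called genes were chosen for a wide gap between these values, which most genes lack, so the shares are not directly comparable. By class the 6M value was nearer to that of 4M in 34 of 37 genes that opened and 34 of 36 that widened. The same held for 15 of 19 that narrowed, 10 of 12 that closed and 12 of 15 that changed sign. Lrrc8b was at 23.9, 41.6 and 28.5 CPM in NOD.H-2b mice at 6M, near its 4M level. Pigr was at 175, 349.9 and 320.0 CPM in BALB/c mice and 184, 249.6 and 199 CPM in NOD.H-2b mice, overlapping as at 4M. S1pr1 was at 21, 15.4 and 19 CPM in NOD.H-2b and at most 1.96 CPM in BALB/c. Gm14135 was an exception, at 428, 695 and 933 CPM in NOD.H-2b mice at 6M, between its levels of 2M and 4M. Esp31 spanned 231, 482 and 1099.5 CPM in NOD.H-2b mice at 6M, and Slco1a5 overlapped between strains, at 10.5, 9.66 and 7.31 CPM in BALB/c mice and 9.91, 11.4 and 10.5 CPM in NOD.H-2b mice.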

How the data were processed

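RNA of 1 LG from each of 18 males was sequenced paired-end from NEBNext Ultra II libraries, after removal of ribosomal RNA. The deposited raw counts per gene were made by the authors with cutadapt, STAR on GRCm38 and HTSeq; their versions, the annotation used, whether strand counted and how multiply mapped reads were handled are not given in the sources used here. The table of normalized values deposited beside the counts was not used.

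From the counts of the 12 mice of 2M and 4M, 1 fit with 4 group means was made in edgeR 4.0.16 (R 4.3.3) with filterByExpr, TMM scaling and the quasi-likelihood test, robust, without a block. Calls needed an FDR under 0.05 over all 18422 genes tested and, where stated, a fold of at least 2. CPM are counts scaled to the TMM library size over the 18 mice. DESeq2 1.42.0 and limma 3.58.1 served alternatives and support functions. The fit was tested on simulated data. A group in which no mouse had more than 3 counts was taken as at the floor. Each SE is the absolute log2 value divided by the square root of the F statistic of that test. With 1 library per mouse, SE and p rest on the spread between mice within groups. That spread was pooled over the 4 groups and moderated across genes.

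The members and lists were chosen with earlier results of these data known. Named genes were the 10 with the smallest p each way among called genes of average log2 CPM 2 or more, up to 4 called members of each list or its member with the smallest p, up to 5 genes that closed or narrowed and up to 5 that changed sign, members needed to describe a list, and 6 genes fixed by name (Tyrobp, C1qc, Itgax, Car6, Jchain and Ighm). Gene names and coordinates came from GENCODE M21 (54079 of 54232 IDs) and promoters from RefSeq on GRCm38.p6. The share of called genes with each motif is not given, since promoters matched only 41 of 62 positive and 43 of 57 negative genes. Some genes that the naming rule selects are not reported here.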

Additional observations from a re-analysis of the deposited data

Results flagged for a closer look

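Each gene here had a change from 2M to 4M that differed between the strains by edgeR's quasi-likelihood test of the interaction at FDR under 0.05, and is given with its log2 interaction, NOD.H-2b minus BALB/c. The gap opened with NOD.H-2b the higher for Map4k2 (1.01). It widened with NOD.H-2b the higher for Smc4 (1.08), Pecam1 (1.10), S1pr1 (2.21), Grk6 (1.25), Scgb2b1 (1.67) and Cd55 (1.90). It narrowed, NOD.H-2b being the lower, for Esp31 (3.54) and Gm14135 (3.26). It turned from lower to higher in NOD.H-2b for Snord17 (1.02), Rapgef4 (4.29) and Psat1 (1.12). It opened with NOD.H-2b the lower for Ccdc3 (-1.58) and Mucl2 (-1.23). It widened with NOD.H-2b the lower for Lrrc8b (-1.07), Whrn (-1.93), Slc5a1 (-1.51), Mgll (-1.18), Fcgbp (-1.18) and Acacb (-1.32). It narrowed, NOD.H-2b being the higher, for Fgl2 (-1.77), Ccl6 (-1.55), Ccl9 (-1.01), Pmvk (-1.13), Syne4 (-1.74) and Ptprd (-1.23). It closed for Pigr (-2.60). It turned from higher to lower in NOD.H-2b for Slco1a5 (-1.49), Tcaf1 (-1.02), Prom1 (-2.24) and Lum (-1.0). Under 2-fold the interaction was positive for Casp8 (0.70) and Scgb1b2 (0.74). Under 2-fold it was negative for Epcam (-0.55), F11r (-0.47), Krt18 (-0.51), Bcat2 (-0.43), Arg2 (-0.94), Col6a3 (-0.73) and Dcn (-0.52).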

How the results depend on the processing

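The positive and negative genes, 62 and 57, numbered 193 and 150 by DESeq2, 0 and 1 against 2-fold in glmTreat (2-fold being the null there), 18 and 42 without both NOD.H-2b 2M replicate 1 and BALB/c 4M replicate 3 (chosen after seeing the data), and 13 to 114 and 27 to 72 without 1 mouse. Strain differences that opened or widened, 73, numbered 215, 0, 32 and 22 to 122 in that order, those that closed or narrowed, 31, numbered 107, 0, 21 and 15 to 40, and those that changed sign, 15, numbered 18, 1, 7 and 5 to 17. DESeq2 shared 105 of the 119 genes. Genes that rose and fell in NOD.H-2b, 2585 and 1671, ranged from 1667 to 2587 and from 956 to 2108 without 1 mouse, and 1610 rose without both mice. In BALB/c 566 and 366 rose and fell, against 1162 and 556 by DESeq2, 341 and 82 without both mice, and 205 to 742 and 78 to 551 without 1 mouse. Without both mice the interactions of Alas2, Tyrobp, C1qc and Car6 turned sign to -0.036, 0.19, 0.15 and -0.30. Without 1 mouse Tyrobp ranged from -0.38 to 0.32, C1qc from -0.20 to 0.24 and Car6 from -0.72 to 0.32, none of them called. DESeq2 size factors, upper quartile scaling, both filters, the fit without robust and the fit of 18 mice kept the sign of all called genes they tested. These settings reuse the same mice, so this too was likely beforehand. The cause of these shifts was not tested.

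The replicate numbers of the labels were not found to pair mice. Over 18 pairs of same-numbered mice of different groups the correlation of their deviations lay between -0.53 and 0.25, with 3 over 0.1. Over 36 pairs with different numbers it lay between -0.44 and 0.49, with 11 over 0.1. With the number as a block, 24 genes were positive and 35 negative, 55 of them among the 119, with 29 opened or widened, 21 closed or narrowed and 9 of changed sign. The interaction of Car6 was -0.045 there.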

Other observations

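3 gene families, chosen after their values were seen, are given as values. Their calls are to be read beside 0.755% positive and 1.13% negative of all genes tested. Of 80 ribosomal protein genes tested, 77 had a positive interaction and 7 passed FDR 0.05, with a median of 0.20. Their median change with age was 0.25 in NOD.H-2b and 0.029 in BALB/c, and the median strain difference went from -0.14 to 0.062.

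Of 53 secretoglobin genes, 47 had a positive interaction and 3 passed FDR 0.05, with a median of 0.60, from a median change with age of 0.45 in NOD.H-2b and -0.25 in BALB/c. Of 194 immunoglobulin variable genes, 143 had a negative interaction and 4 passed FDR 0.05, with a median of -1.44 beside 0.011 over all genes. Their median change with age was 2.75 in NOD.H-2b and 4.21 in BALB/c on the log2 scale, called in 109 and 66 of the 194, and their median SE was 1.75. The median strain difference was 4.44 at 2M and 2.82 at 4M. How many of them had a group at the floor is not given. Where BALB/c mice of 2M had few counts, as for Ighv5-9, the fitted value is no bound. Similar members of the secretoglobin and immunoglobulin families can share reads, so the members are not taken as separate measurements.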
